A study of Homo sapiens with 12 samples.

Results

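The NRF2 antioxidant response genes examined here were a list of 9 genes taken by symbol out of 60617 genes in the deposited TPM table. They were NFE2L2, which encodes the transcription factor NRF2, and 8 genes known as its targets: NQO1, HMOX1, GCLC, GCLM, TXNRD1, SRXN1, GSR and TXN. All 9 had TPM values in every library, and 8 also had a row in the deposited table of read counts and passed edgeR's filter on low counts. HMOX1 had no count row, so its test used TPM. RNA-Seq was measured in 12 libraries of 201B7, an established human iPSC line, in 4 culture conditions with 3 libraries each, harvested on Day 5. Cells of Cond 1, the control, were kept in StemFit by the usual maintenance culture. Cells of Cond 2 (low nutrient) were kept in StemFit that had been heated at 56 °C for 30 min, given from Day 2. Cells of Cond 3 (differentiation) received DMEM that held 10% FBS with 1% each of MEM NEAA and GlutaMax, given on Day 4, and cells of Cond 4 (physical stimulus) were pipetted 20 times at passaging and then kept like Cond 1. Cond 2 and Cond 3 thus differed in the length of exposure as well as in the medium, and these cannot be told apart. All 4 conditions came from a single line, and the study describes its replicates both as technical replicates and as an experiment run in triplicate, so p-values measure only the spread between these libraries.

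NRF2 is held at a low level in unstressed cells because KEAP1, with the ubiquitin ligase scaffold CUL3, marks it for degradation. When oxidants or electrophiles modify KEAP1, NRF2 accumulates, pairs with a small MAF protein and binds antioxidant response elements in its target genes, whereas BACH1 competes for the same elements. Because this control acts on the protein, the mRNA level of NFE2L2 is not a measure of NRF2 activity. The targets supply glutathione (GCLC, GCLM) and reduce glutathione and thioredoxin with NADPH (GSR, TXNRD1). Others reduce disulfides of proteins (TXN), reactivate overoxidised peroxiredoxins (SRXN1), reduce quinones (NQO1) and degrade haem (HMOX1).

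The core of the antioxidant response element, TGACNNNGC, was searched on both strands before the RefSeq start sites of the genes on GRCh38.p14. The RefSeq promoter table held 7 of the 9 genes, with 9 start sites in all, and had no entry for HMOX1 and GSR. Within 250 bases before a start, 2 of the 7 genes held the core, GCLM and TXNRD1 (3 of the 9 start sites, beside 10.9% of all 35116 start sites in the table). Within 1000 bases, a window added after the values were seen, 5 of the 7 genes held it (6 of the 9 start sites, beside 31.9% of all start sites). The matches are shown as the places where the core sequence occurs in the windows of the genes described below. Each line gives the strand that reads TGACNNNGC, with the 9 bases of the match in capitals and 16 bases on either side.
GCLM, chr1:93909440-93909480, forward strand: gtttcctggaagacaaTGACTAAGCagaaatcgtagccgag
TXNRD1 first start, chr12:104215664-104215704, forward strand: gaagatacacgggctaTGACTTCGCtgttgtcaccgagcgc
TXNRD1 second start, chr12:104286914-104286954, reverse strand: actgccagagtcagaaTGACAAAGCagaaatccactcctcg
NQO1, chr16:69726991-69727031, reverse strand: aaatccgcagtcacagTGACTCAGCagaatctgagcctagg
TXN, chr9:110257064-110257104, forward strand: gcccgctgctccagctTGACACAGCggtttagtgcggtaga
GCLC, chr6:53545947-53545987, forward strand: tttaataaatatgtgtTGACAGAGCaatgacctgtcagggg

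The match of GCLM lay 26 to 34 bases before its start, those of TXNRD1 91 to 99 bases before its first and 94 to 102 bases before its second start. The match of NQO1 lay 447 to 455 bases before the start, that of TXN 573 to 581 bases and that of GCLC 862 to 870 bases. GCLM and the second start of TXNRD1 shared the 7 bases after the core and 25 of the 41 bases printed, whereas GCLM and the first start of TXNRD1 shared 0 bases directly after the core and 15 of 41. A second motif, TGACTCA, the site of AP-1 factors, overlaps the core in NQO1, where both begin at the same base. It occurred within 1000 bases before the start of 2 of the 7 genes, NQO1 and SRXN1 (2 of the 9 start sites, beside 13.6% of all), and within 250 bases in 0 of the 7 (0 of the 9 start sites, beside 4.2% of all). SRXN1 is shown for its TGACTCA in capitals, 266 to 272 bases before the start.
SRXN1, chr20:653450-653488, forward strand: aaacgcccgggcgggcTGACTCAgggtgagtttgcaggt
A match describes these letters only, and the RNA data do not show whether a factor was bound there.

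The libraries held 16441148 to 21871503 counts. They contained transcripts of primed pluripotent cells in every condition, with summed TPM of a list of 14 markers between 6764 and 8240. The sum covers members that moved, since 5 of the 14 were higher and 7 lower in Cond 2, and 5 higher and 5 lower in Cond 3. NANOG was at 43.6 to 47.2 TPM in Cond 1, 20.2 to 24.6 in Cond 2 and 9.93 to 11.3 in Cond 3. Markers of neuroectoderm, of surface ectoderm and amnion, and of fibroblasts moved with the conditions, whereas the summed TPM of 9 mesendoderm markers overlapped between them. For mesendoderm it was 5.38 to 11.1 in Cond 1, 5.44 to 8.6 in Cond 2, 5.81 to 10.9 in Cond 3 and 7.81 to 10.1 in Cond 4. Of the 3 mesendoderm markers tested, 0 were higher or lower in Cond 2, and 1 was higher in Cond 3. The summed TPM of 10 neuroectoderm markers was 24.8 to 46.0 in Cond 1 and 586 to 927 in Cond 2. It was 64.4 to 83.0 in Cond 3 and 32.1 to 63.2 in Cond 4, and 7 of the 9 tested were higher in Cond 2. The largest values in Cond 2 were those of LHX5 (207 to 334 TPM), SIX3 (109 to 209), HESX1 (137 to 205) and DLK1 (95.2 to 160). PAX6 was at 0.134 to 0.372 and SOX1 at 0.0616 to 0.438 TPM in Cond 2. For 10 markers of surface ectoderm and amnion the summed TPM was 28.7 to 32.6, 42.3 to 82.9, 32.5 to 38.2 and 25.9 to 29.8 from Cond 1 to Cond 4. Of the 7 tested, 6 were higher and 1 lower in Cond 2 (median log2 fold change 4.66), and 3 were higher and 1 lower in Cond 3. Several started near 0, such as DLX5 (0 to 0.208 TPM in Cond 1, 5.24 to 26.3 in Cond 2) and GATA3 (0.187 to 0.402 and 3.97 to 12.1). KRT7, the most abundant in Cond 1, was at 20.2 to 23.9 TPM there and 27.4 to 36.2 in Cond 2. GABRP went the other way, at 5.85 to 7.89 TPM in Cond 1 and 0.18 to 0.471 in Cond 2. The summed TPM of 9 fibroblast markers was 424 to 456, 265 to 314, 587 to 624 and 384 to 408 from Cond 1 to Cond 4. In Cond 3 COL1A1 was at 419 to 454 and COL1A2 at 106 to 112 TPM, against 234 to 259 and 45.5 to 48.7 in Cond 1, and THY1 was at 48.6 to 49.2 against 126 to 157. The defining fibroblast genes DCN and LUM were at 0 to 0.0337 and 0 to 0.159 TPM. Of the 6 fibroblast markers tested, 3 were lower in Cond 2, and 3 were higher and 1 lower in Cond 3. Beside these counts of markers, 10.8% of all genes tested were higher and 10.1% lower in Cond 2, and 19.5% higher and 18.8% lower in Cond 3. The part of these markers in the changes of the 9 genes was not tested, and in bulk RNA fewer cells of a type and less RNA per cell cannot be told apart.

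In control iPSCs the 9 genes spanned a 107-fold range of TPM, a level per gene length. TXN was the most abundant, at 648 ± 37.4 TPM (SD, n = 3), followed by GSR at 124 ± 1.40 and TXNRD1 at 94.8 ± 1.68. NQO1, HMOX1 and NFE2L2 lay between 30.6 and 56.4 TPM, and GCLC and GCLM near each other at 19.6 ± 0.0551 and 18.6 ± 2.71. SRXN1 was lowest at 6.07 ± 0.287, which rested on 81 to 96 reads per library in Cond 1. A readthrough gene on the same strand covers 90.7% of the exonic bases of SRXN1. Its level and the 107-fold range thus depend on how shared reads were counted, which is not stated.

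**Figure D1:**
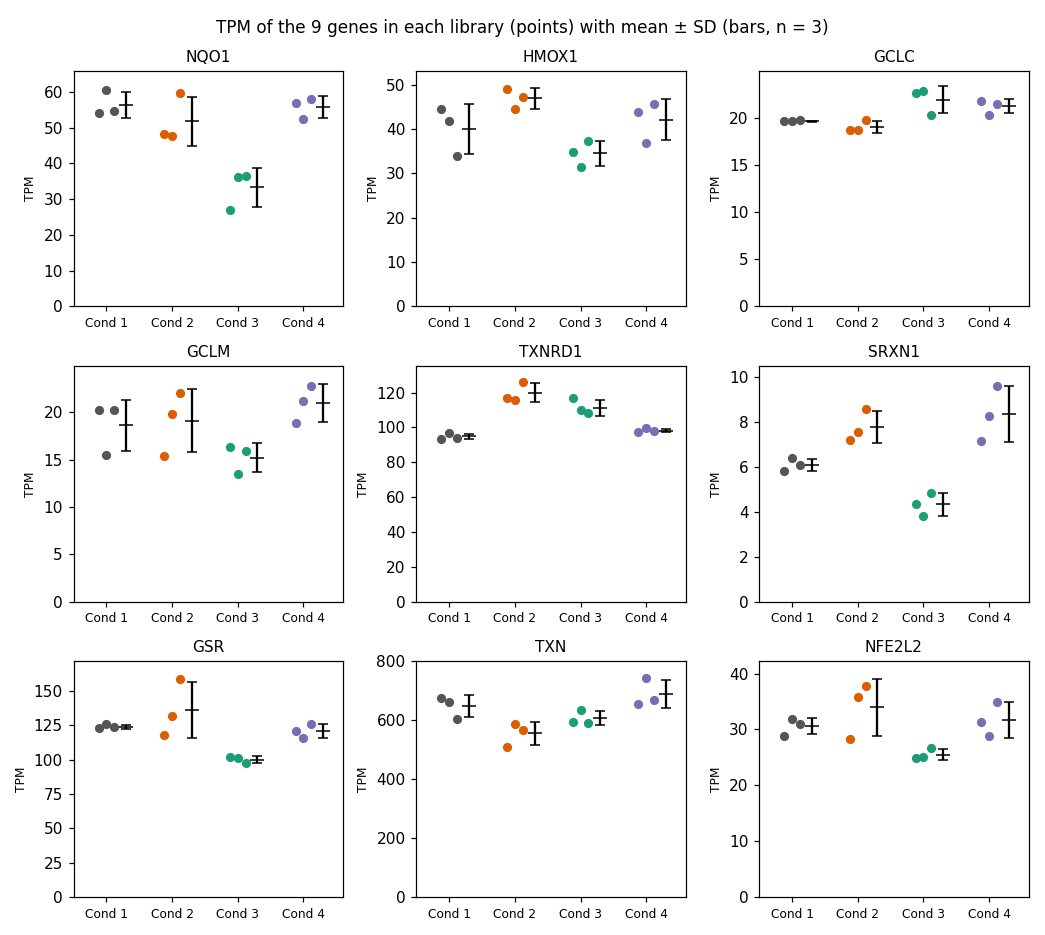
TPM (vertical axis, linear, from 0) of each of the 9 genes in the 3 libraries of each condition (points), with the mean and SD beside them (bars, n = 3). The Cond 3 libraries of NQO1, SRXN1, GSR and NFE2L2 lie below all libraries of Cond 1, and those of TXNRD1 lie above them.

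In Cond 3, the differentiation medium, 6 of the 8 genes tested with edgeR passed an adjusted p of 0.05 against Cond 1, beside 38.4% of all 17747 genes tested. NQO1, GSR, NFE2L2, SRXN1 and GCLM were lower, beside 18.8% of all genes, and TXNRD1 was higher, beside 19.5%. In Cond 2, the heated medium, 2 of the 8 passed, beside 20.9% of all genes. These were TXNRD1, which was higher (10.8% of all genes were), and TXN, which was lower (10.1%). In Cond 4, the pipetted cells, 0 of the 8 passed with edgeR or limma, beside 0.0282% of all genes (0.0225% higher and 0.00563% lower), and 1 of the 8, SRXN1, had an unadjusted p under 0.05 from edgeR. DESeq2 gave an adjusted p for 7 of the 8, without SRXN1, and called 0 of them. Compared directly, Cond 3 differed from Cond 2 in 6 of the 8 genes, beside 38.2% of all genes. NQO1, SRXN1, GSR and NFE2L2 were lower (19.2% of all genes) and GCLC and TXN were higher in Cond 3 (19.0%).

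Against Cond 1, the log2 fold changes of the 8 genes had a median of -0.01 for Cond 2, -0.31 for Cond 3 and 0.06 for Cond 4, where the medians of all genes were 0.00018, -0.0064 and 0.00033. Between Cond 3 and Cond 2 it was -0.31, with -0.0012 for all genes. These comparisons share the libraries of Cond 1 or of the media compared and are not independent of each other. None of the 9 genes was a DEG (changed more than 2-fold at an adjusted p under 0.05) in any comparison, whereas 4.34% of all genes were in Cond 2, 8.16% in Cond 3, 0.0169% in Cond 4 and 8.77% between Cond 3 and Cond 2. On log2(TPM + 1) the median of all genes tested was 0.087 higher in Cond 2 than in Cond 1, against 0.000 in the edgeR fit, so levels and shares in TPM stand higher in Cond 2 than the edgeR fold changes do. By TPM, all 3 libraries of Cond 2 lay above or below all 3 of Cond 1 for 3 of the 9 genes (35.7% of all genes tested), those of Cond 3 for 6 (48.6%) and those of Cond 4 for 3 (11.9%). Between Cond 3 and Cond 2 this held for 7 of the 9 (47.6% of all genes). The count in Cond 3 against Cond 1 was 3 of 8 without replicate 3 of Cond 1, without replicate 1 of Cond 3 or without replicate 2 of Cond 3. It was 4 with DESeq2 and with limma, and limma called 1 of the 8 in Cond 2.

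**Figure D2:**
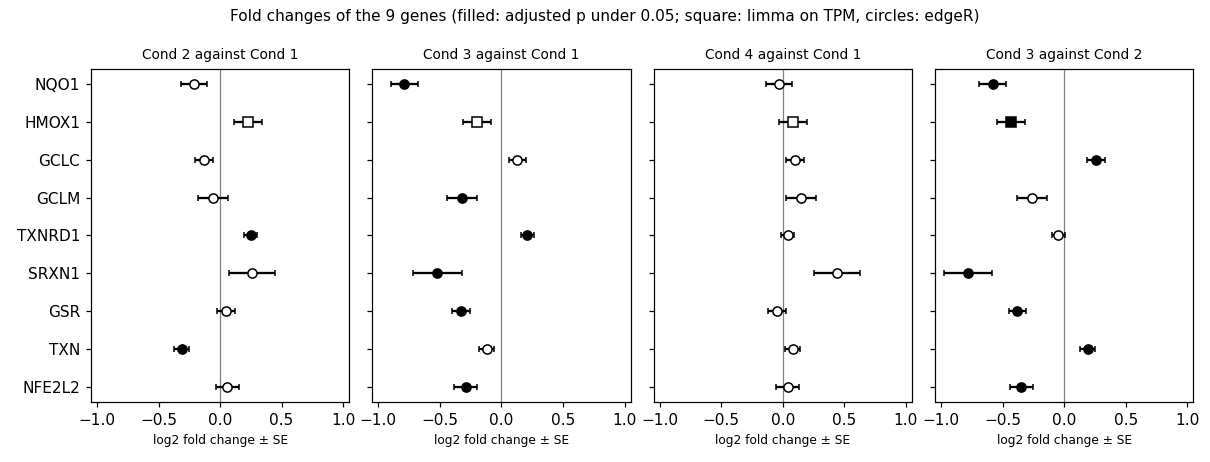
Log2 fold changes (horizontal axis) with standard errors (bars) of the 9 genes in the 4 comparisons, from edgeR on counts (circles) or limma on log2(TPM + 1) for HMOX1 (square). Filled symbols have an adjusted p-value under 0.05, and in Cond 4 against Cond 1 all symbols are open.

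NFE2L2 (ENSG00000116044, chromosome 2, 177218667 to 177392756, reverse strand) encodes NRF2 itself. Its TPM was 28.9, 31.9 and 30.9 in Cond 1, 28.2, 35.9 and 37.8 in Cond 2, 24.8, 25.1 and 26.6 in Cond 3, and 31.3, 28.8 and 35.0 in Cond 4. Every library of Cond 3 was below every library of the other 3 conditions, whose libraries overlapped. In Cond 3 the gene reached 83.3% of its mean TPM in Cond 1 and fell by 0.29 on the log2 scale (standard error, SE, 0.0932 and edgeR adjusted p = 0.0165). Against Cond 2 it fell by 0.35 (SE 0.0929, edgeR adjusted p = 0.00413). The log2 fold changes of 0.06 in Cond 2 and 0.04 in Cond 4 had adjusted p-values of 0.701 and 0.978 from edgeR. The call against Cond 1 had adjusted p-values of 0.0553 and 0.0554 from edgeR without replicate 2 or 3 of Cond 1, 0.0629 and 0.0503 without replicate 1 or 2 of Cond 3, and 0.0864 with limma. In GENCODE release 44, 14.7% of the 31-base words of its transcripts (every run of 31 bases) also occur elsewhere on the main assembly. Exons of other genes cover 13.6% of its 14975 exonic bases on the same strand and 24.8% on the opposite strand. The count table gives the gene a length of only 5671 bases, so these shares may not hold for the model that was counted.

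NQO1 (ENSG00000181019, chromosome 16, 69706996 to 69726668, reverse strand), the quinone reductase often used as a readout of NRF2, had the largest change against Cond 1 among the 9 genes. Its TPM was 54.0, 60.5 and 54.7 in Cond 1, 48.2, 47.6 and 59.7 in Cond 2, 27.1, 36.3 and 36.4 in Cond 3, and 56.8, 52.3 and 58.1 in Cond 4. The 3 libraries of Cond 3 lay below all others, with replicate 1 lowest, and the libraries of the other 3 conditions overlapped. NQO1 in Cond 3 was at 59.0% of its mean in Cond 1 and fell by 0.79 on the log2 scale (SE 0.109, edgeR adjusted p = 4.31e-06). Leaving out any 1 of the 6 libraries gave values between -0.86 and -0.65, with adjusted p-values from edgeR of at most 5.49e-05. Against Cond 2 it fell by 0.58 (SE 0.109, edgeR adjusted p = 0.000186). For Cond 2 against Cond 1 the log2 fold change was -0.21 (SE 0.106, edgeR adjusted p = 0.185) and in Cond 4 it was -0.03 (edgeR adjusted p = 0.986). Libraries of Cond 3 had 493 to 591 reads on the gene, those of Cond 1 848 to 952. A gene of the opposite strand (ENSG00000261602) covers 19.4% of its exonic bases.

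GCLC (ENSG00000001084, chromosome 6, 53497341 to 53616970, reverse strand) and GCLM (ENSG00000023909, chromosome 1, 93885199 to 93909456, reverse strand) encode the catalytic and the modifier subunit of glutamate-cysteine ligase, the rate-limiting enzyme of glutathione synthesis. GCLC TPM was 19.6, 19.6 and 19.7 in Cond 1, 18.7, 18.7 and 19.7 in Cond 2, 22.6, 22.8 and 20.3 in Cond 3, and 21.8, 20.3 and 21.4 in Cond 4. GCLM TPM was 20.2, 15.5 and 20.2 in Cond 1, 15.4, 19.8 and 22 in Cond 2, 16.3, 13.5 and 15.9 in Cond 3, and 18.9, 21.2 and 22.8 in Cond 4. For GCLC the libraries of Cond 3 and Cond 4 lay above all of Cond 1, and for GCLM all neighbouring conditions in the order of means overlapped.

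Against Cond 1, GCLC had log2 fold changes of -0.13 for Cond 2, 0.13 for Cond 3 and 0.10 for Cond 4, with adjusted p-values of 0.24, 0.163 and 0.887 from edgeR. Cond 3 was above Cond 2, by 0.26 on the log2 scale (SE 0.0729, edgeR adjusted p = 0.00642). GCLM in Cond 3 was at 81.7% of its mean in Cond 1 and fell by 0.32 on the log2 scale (SE 0.123, edgeR adjusted p = 0.0417), although replicate 2 of Cond 1 was below replicates 1 and 3 of Cond 3. This call was lost when replicate 1 or 3 of Cond 1 was left out (adjusted p = 0.151 and 0.179 from edgeR), when replicate 1, 2 or 3 of Cond 3 was (0.0512, 0.182 and 0.0608), with upper-quartile normalization (0.0596), with limma (0.155) and with DESeq2 (0.0541). In Cond 2 and Cond 4 the log2 fold change of GCLM was -0.06 and 0.15, with adjusted p-values of 0.791 and 0.895 from edgeR. Between Cond 3 and Cond 2 it was -0.26 (edgeR adjusted p = 0.0985), and with each library left out it ranged from -0.38 (0.0187 without replicate 1 of Cond 2) to -0.16 (0.381 without replicate 3 of Cond 2).

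GSR (ENSG00000104687, chromosome 8, 30678066 to 30727846, reverse strand), glutathione reductase, regenerates reduced glutathione with NADPH. Its TPM was 123, 126 and 124 in Cond 1, 118, 132 and 159 in Cond 2, 102, 101 and 97.6 in Cond 3, and 121, 116 and 126 in Cond 4. The libraries of Cond 3 were close together and below all others, whereas those of Cond 2 were spread around the level of Cond 1. In Cond 3 GSR was at 80.9% of its mean in Cond 1 and fell by 0.33 on the log2 scale (SE 0.0724, edgeR adjusted p = 0.000804). Against Cond 2 it fell by 0.38 (SE 0.0723, edgeR adjusted p = 0.000214). Log2 fold changes of 0.05 in Cond 2 and -0.05 in Cond 4 had adjusted p-values of 0.719 and 0.958 from edgeR.

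TXN (ENSG00000136810, chromosome 9, 110243810 to 110256507, reverse strand) encodes thioredoxin, a small protein that reduces disulfides of other proteins. Its TPM was 675, 663 and 605 in Cond 1, 510, 588 and 566 in Cond 2, 594, 635 and 592 in Cond 3, and 655, 744 and 670 in Cond 4. All 3 libraries of Cond 2 lay below those of the other conditions. In Cond 2 TXN was at 85.6% of its mean in Cond 1 and fell by 0.31 on the log2 scale (SE 0.0615, edgeR adjusted p = 0.000636). With limma on log2(TPM + 1) the fall was 0.22 (limma adjusted p = 0.058). The log2 fold changes of -0.12 in Cond 3 and 0.08 in Cond 4 had adjusted p-values of 0.128 and 0.895 from edgeR. Cond 3 was above Cond 2, by 0.19 (SE 0.0615, edgeR adjusted p = 0.0177), a call lost without replicate 1 of Cond 2 (edgeR adjusted p = 0.0742), without replicate 2 of Cond 3 (0.0915) and with limma (0.202). Copies elsewhere on the main assembly hold 16% of the 31-base words of TXN, the highest share among the 9 genes, and how reads with several matches were counted is not stated.

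TXNRD1 (ENSG00000198431, chromosome 12, 104215779 to 104350307, forward strand) encodes the cytosolic thioredoxin reductase, the selenoprotein that recharges thioredoxin with NADPH. It was the only one of the 8 genes tested with edgeR that was higher in Cond 2 and in Cond 3. Its TPM was 93.5, 96.7 and 94.1 in Cond 1, 117, 116 and 126 in Cond 2, 117, 110 and 108 in Cond 3, and 97.4, 99.4 and 97.9 in Cond 4. The libraries of Cond 2 and Cond 3 overlapped each other and lay above those of Cond 4, which in turn lay above those of Cond 1. TXNRD1 rose by 0.25 on the log2 scale in Cond 2 (SE 0.0524, edgeR adjusted p = 0.000923) and by 0.21 in Cond 3 (SE 0.0524, edgeR adjusted p = 0.00326). Both calls held with each library left out in turn, with adjusted p-values from edgeR of at most 0.00808 and 0.0243. Cond 4 differed from Cond 1 by 0.04 (edgeR adjusted p = 0.951) and Cond 3 from Cond 2 by -0.05 (edgeR adjusted p = 0.503).

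SRXN1 (ENSG00000271303, chromosome 20, 646615 to 653200, reverse strand) encodes sulfiredoxin, which reactivates overoxidised peroxiredoxins. Its TPM was 5.79, 6.36 and 6.07 in Cond 1, 7.19, 7.53 and 8.54 in Cond 2, 4.36, 3.79 and 4.82 in Cond 3, and 7.13, 8.23 and 9.59 in Cond 4. The libraries of Cond 2 and of Cond 4 lay above, and those of Cond 3 below, all libraries of Cond 1. In Cond 3 SRXN1 was at 71.2% of its mean in Cond 1 and fell by 0.52 on the log2 scale (SE 0.196, edgeR adjusted p = 0.041). Against Cond 2 it fell by 0.78 (SE 0.194, edgeR adjusted p = 0.00265). For Cond 2 against Cond 1 the log2 fold change was 0.26 (SE 0.19, edgeR adjusted p = 0.372). In Cond 4 it was 0.44 (SE 0.189, unadjusted p = 0.0283, edgeR adjusted p = 0.79), so the separation of the libraries did not pass the test over all genes.

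These values of SRXN1 rested on 56 to 140 reads per library, the fewest of the 9 genes. The call in Cond 3 against Cond 1 was lost without replicate 1, 2 or 3 of Cond 1 (adjusted p = 0.0571, 0.0884 and 0.0865 from edgeR), without replicate 1 or 2 of Cond 3 (0.0839 and 0.136), without the filter on low counts (0.128), with the 6 libraries alone (0.065) and with DESeq2 (0.0643). A readthrough gene on the same strand (ENSG00000270299) covers 90.7% of its exonic bases, and how reads on both genes were counted is not stated.

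HMOX1 (ENSG00000100292, chromosome 22, 35380361 to 35394214, forward strand) encodes haem oxygenase 1, which degrades haem and is induced by many stresses. Its TPM was 44.5, 41.7 and 33.8 in Cond 1, 49.1, 44.5 and 47.2 in Cond 2, 34.9, 31.5 and 37.2 in Cond 3, and 43.7, 36.9 and 45.7 in Cond 4. Every library of Cond 3 was below every library of Cond 2, and Cond 1 overlapped the other 3 conditions. On the log2(TPM + 1) scale HMOX1 differed from Cond 1 by 0.23 in Cond 2 (SE 0.114, limma adjusted p = 0.159), by -0.20 in Cond 3 (SE 0.114, limma adjusted p = 0.191) and by 0.08 in Cond 4 (limma adjusted p = 0.952). Between Cond 3 and Cond 2 it fell by 0.43 (SE 0.114, limma adjusted p = 0.0111). With each library left out, the difference in Cond 3 ranged from -0.31 without replicate 3 of Cond 1, its lowest control library (limma adjusted p = 0.0453), to -0.14 without replicate 2 of Cond 3 (limma adjusted p = 0.443) and -0.12 without replicate 1 of Cond 1 (limma adjusted p = 0.487), and in Cond 2 from 0.12 to 0.31. Whole reads could be recovered from its TPM, 396 to 584 per library, and with them edgeR gave a log2 fold change of 0.15 in Cond 2 and adjusted p-values of 0.395 in Cond 2, 0.1 in Cond 3, 0.968 in Cond 4 and 0.00828 between Cond 3 and Cond 2.

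Ratios of pairs of these genes within a library do not depend on the scaling of that library. TXN was 7.21, 6.86 and 6.43 times as abundant in TPM as TXNRD1 in Cond 1, 4.35, 5.05 and 4.47 times in Cond 2, and 5.09, 5.79 and 5.48 times in Cond 3. In both media the ratio lay below every library of Cond 1, and in Cond 4, at 7.02 ± 0.41 (SD, n = 3), it overlapped Cond 1. The ratio of GCLC to GCLM was 1.07 ± 0.168 in Cond 1 and 1.45 ± 0.214 in Cond 3 (SD, n = 3), where all 3 libraries lay above Cond 1. The ratio of GSR to TXNRD1, both NADPH-dependent reductases, was 1.31 ± 0.00898 in Cond 1, 1.13 ± 0.123 in Cond 2, 0.901 ± 0.021 in Cond 3 and 1.23 ± 0.0598 in Cond 4 (SD, n = 3), with the libraries of Cond 2, Cond 3 and Cond 4 below all of Cond 1. The ratio of NQO1 to NFE2L2 went from 1.84 ± 0.0675 (Cond 1) to 1.54 ± 0.197 (Cond 2) and 1.30 ± 0.187 (Cond 3, all SD, n = 3), and the libraries of both media lay below those of Cond 1. Each of these separations had an exact two-sided permutation p of 0.1, the smallest that 3 libraries against 3 can give. The pairs are a selection, and the share of other gene pairs that separate in this way was not computed. In Cond 4 neither GSR nor TXNRD1 was called against Cond 1 with edgeR.

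**Figure D3:**
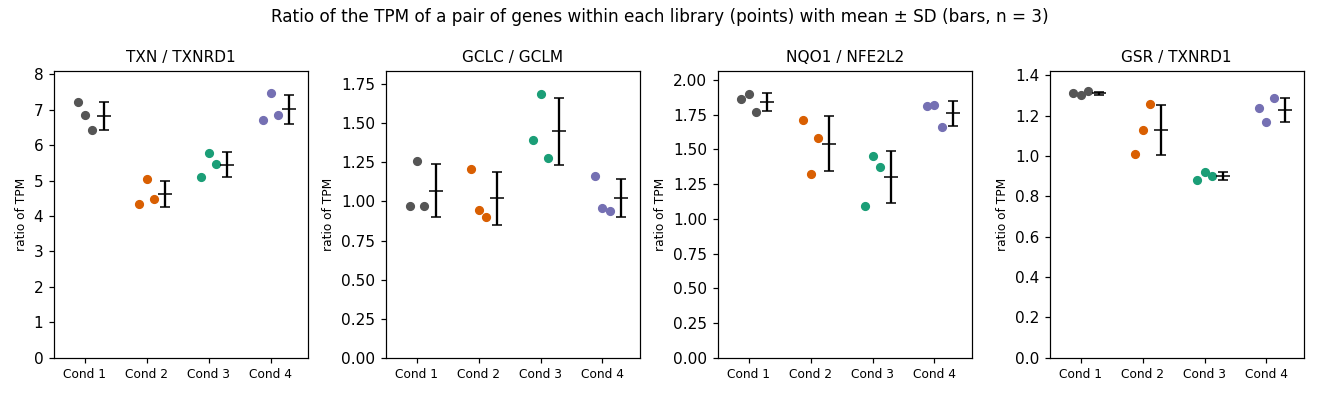
Ratio of TPM (vertical axis, linear, from 0) for 4 pairs of genes in each library (points) with mean and SD (bars, n = 3). The ratio of TXN to TXNRD1 lies lower in Cond 2 and Cond 3 than in Cond 1, and the ratio of GCLC to GCLM lies higher in Cond 3.

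The genes around this pathway are given by their log2 fold changes against Cond 1, and genes without a count row or below the filter on low counts are not in the counts of each list. Of all genes tested with edgeR, 20.9% passed in Cond 2 and 38.4% in Cond 3, and each list's count is to be read against these shares. Among the proteins that hold or assist NRF2, 2 of 10 listed genes with counts passed the test in Cond 2 (1 higher and 1 lower, beside 20.9% of all genes) and 8 of 10 in Cond 3 (3 higher and 5 lower, beside 38.4% of all genes). KEAP1, the repressor of NRF2, rose by 0.20 in Cond 3 (edgeR adjusted p = 0.0412), with 83.3 ± 8.64 TPM in Cond 1 and 97.5 ± 3.98 in Cond 3 (SD, n = 3), and had -0.18 in Cond 2 (edgeR adjusted p = 0.0956). CUL3 fell by 0.18 in Cond 3 (edgeR adjusted p = 0.0417) and had -0.04 in Cond 2 (edgeR adjusted p = 0.745). Of the small MAF partners in Cond 3, MAFG fell by 0.58 (edgeR adjusted p = 1.11e-06) and MAFK rose by 0.59 (edgeR adjusted p = 0.000136). MAFF had no count row and was named after its values were seen. On TPM it rose by 0.45 in Cond 2 (limma adjusted p = 0.0206) and fell by 0.45 in Cond 3 (limma adjusted p = 0.0125). BACH1, the competitor of NRF2, was also tested on TPM. It rose by 0.27 in Cond 2 (limma adjusted p = 0.0096) and fell by 0.20 in Cond 3 (limma adjusted p = 0.0287). On log2(TPM + 1) the median of all genes tested was 0.087 higher in Cond 2 than in Cond 1, against 0.000 with edgeR. The values of MAFF and BACH1 in Cond 2 therefore stand higher than edgeR values would.

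NFE2L3, a relative of NFE2L2 in the same factor family, had the largest change of this list. It had 103 ± 15.2 TPM (SD, n = 3) in Cond 1, against 64.1 ± 4.09 in Cond 2 and 26.6 ± 3.42 in Cond 3, and it fell by 0.77 in Cond 2 (edgeR adjusted p = 1.27e-06) and by 1.98 in Cond 3 (edgeR adjusted p = 4.26e-13). GSK3B, a kinase that can mark NRF2 for degradation independently of KEAP1, rose by 0.27 in Cond 2 (edgeR adjusted p = 0.00161).

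In the list of glutathione supply and use, 6 of 27 genes with counts passed the test in Cond 2 (2 higher and 4 lower, median log2 fold change -0.06, beside 20.9% of all genes), and 16 of 27 in Cond 3 (4 higher and 12 lower, median -0.24, beside 38.4% of all genes). SLC7A11, the cystine importer that feeds glutathione synthesis, fell from 55.7 ± 5.40 to 13.7 ± 1.07 TPM (SD, n = 3) in Cond 3, by 2.05 on the log2 scale (edgeR adjusted p = 2.43e-14). CHAC1, which degrades glutathione, fell from 339 ± 7.59 to 38.3 ± 10.4 TPM (SD, n = 3), by 3.18 (edgeR adjusted p = 6.74e-15). Both genes are also known as targets of ATF4, whose part in these changes was not tested. In a list of the amino acid response, which holds both, all 21 tested genes were lower in Cond 3 (median -1.51), beside 18.8% of all genes. In Cond 2, 3 of them were higher and 3 lower, beside 10.8% and 10.1% of all genes. GSTO1 fell by 0.36 in Cond 2 (edgeR adjusted p = 0.00354) and by 0.89 in Cond 3 (edgeR adjusted p = 4.21e-08). GSTM3 rose by 1.29 in Cond 3 (edgeR adjusted p = 0.00252), from 1.18 to 2.96 mean TPM. GSTP1, the most abundant glutathione transferase named here, fell in Cond 2 from 1597 ± 74.6 to 1042 ± 108 TPM (SD, n = 3), by 0.70 (edgeR adjusted p = 6.49e-09), and had 1725 ± 68.4 TPM in Cond 3 (edgeR adjusted p = 0.289). GPX7, a peroxidase of the endoplasmic reticulum, fell in both, by 0.49 in Cond 2 (edgeR adjusted p = 0.01) and by 0.52 in Cond 3 (edgeR adjusted p = 0.00324).

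Of 14 thioredoxins, peroxiredoxins and related genes with counts, 3 passed the test in Cond 2 (1 higher and 2 lower, beside 20.9% of all genes) and 8 in Cond 3 (2 higher and 6 lower, median -0.09, beside 38.4% of all genes). TXNIP, the inhibitor that binds thioredoxin, fell in Cond 3 from 209 ± 7.59 to 54.1 ± 11.8 TPM (SD, n = 3), by 1.98 (edgeR adjusted p = 1.49e-11). TXNRD2, the mitochondrial thioredoxin reductase, fell from 6.00 ± 0.76 to 1.20 ± 0.289 TPM (SD, n = 3), by 2.36 (edgeR adjusted p = 1.2e-09), in the medium in which TXNRD1 rose. SESN3, a stress-inducible sestrin, rose in both, by 0.81 in Cond 2 (edgeR adjusted p = 1.01e-06) and by 0.54 in Cond 3 (edgeR adjusted p = 9.5e-05), while SESN1 fell by 0.76 in Cond 3 (edgeR adjusted p = 7.08e-06). PRDX4 and TXNL1 fell in both, by between 0.17 and 0.30. Of 22 selenoproteins and genes of their synthesis, which include TXNRD1, 2 passed in Cond 2 (1 higher and 1 lower, beside 20.9% of all genes) and 12 in Cond 3 (3 higher and 9 lower, median -0.18, beside 38.4% of all genes). SEPHS1 fell in both, by 0.35 in Cond 2 (edgeR adjusted p = 0.000448) and by 0.66 in Cond 3 (edgeR adjusted p = 6.64e-08), and PSTK, a kinase of selenocysteine synthesis, fell by 0.67 in Cond 3 (edgeR adjusted p = 0.000765).

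Among 12 genes of NADPH supply with counts, 4 passed the test in Cond 2 (1 higher and 3 lower, beside 20.9% of all genes) and 7 in Cond 3 (2 higher and 5 lower, beside 38.4% of all genes). TKT, transketolase of the pentose phosphate pathway, fell in both, from 460 ± 28.7 TPM in Cond 1 to 317 ± 29.1 in Cond 2 and 313 ± 12.5 in Cond 3 (SD, n = 3), by 0.63 (edgeR adjusted p = 1.28e-08) and 0.58 (edgeR adjusted p = 2.13e-08). TALDO1 of the same pathway fell by 0.23 (edgeR adjusted p = 0.00676) and NADK, which makes NADP from NAD, by 0.28 (edgeR adjusted p = 0.00635) in Cond 2. In Cond 3 the mitochondrial enzymes ALDH1L2 and MTHFD2 fell by 1.52 (edgeR adjusted p = 6.02e-10) and 1.48 (edgeR adjusted p = 2.41e-13), and IDH2 rose by 0.82 (edgeR adjusted p = 4.4e-09). MTHFD2 is also in the list of the amino acid response, whose 21 tested genes were all lower in Cond 3.

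Of 15 genes of quinone, carbonyl and drug metabolism with counts, 4 were lower and 0 higher in Cond 2 (median -0.32, beside 20.9% of all genes), and 5 were lower and 1 higher in Cond 3 (median -0.09, beside 38.4% of all genes). NQO2, the relative of NQO1, fell in both, by 0.65 in Cond 2 (edgeR adjusted p = 1.34e-07) and by 0.37 in Cond 3 (edgeR adjusted p = 0.000106). EPHX1, an epoxide hydrolase, fell by 0.80 in Cond 2 (edgeR adjusted p = 3.87e-07) and by 0.34 in Cond 3 (edgeR adjusted p = 0.00323). AKR1C3, an aldo-keto reductase, fell in Cond 2 from 5.58 ± 0.426 to 2.55 ± 0.661 TPM (SD, n = 3), by 1.23 (edgeR adjusted p = 0.000248), and had 6.00 ± 1.26 TPM in Cond 3 (edgeR adjusted p = 0.818). PTGR1 fell by 0.44 (edgeR adjusted p = 6.49e-05) and AKR7A2 by 0.35 (edgeR adjusted p = 0.00281) in Cond 3.

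Of 12 genes of haem and iron with counts, 5 passed the test in Cond 2 (1 higher and 4 lower, beside 20.9% of all genes) and 9 in Cond 3 (2 higher and 7 lower, median -0.20, beside 38.4% of all genes). FLVCR1, a haem exporter, fell from 109 ± 4.68 TPM in Cond 1 to 49.3 ± 6.97 in Cond 2 and 58.6 ± 6.13 in Cond 3 (SD, n = 3), by 1.23 (edgeR adjusted p = 9.87e-11) and 0.92 (edgeR adjusted p = 5.53e-09). SLC48A1, a haem transporter, fell by 0.49 in Cond 2 (edgeR adjusted p = 0.00102) and by 0.60 in Cond 3 (edgeR adjusted p = 5.51e-05). FECH, the last enzyme of haem synthesis, fell by 0.43 (edgeR adjusted p = 0.000286) and by 0.25 (edgeR adjusted p = 0.0138), and IREB2, an iron regulatory protein, rose by 0.53 in Cond 3 (edgeR adjusted p = 3.51e-07). Of 4 genes of superoxide and hydrogen peroxide removal with counts, 0 passed in Cond 2 with edgeR and 0 had an unadjusted p under 0.05, beside 20.9% of all genes. SOD1, the cytosolic superoxide dismutase, has no count row and was named after its values were seen. On TPM it fell by 0.29 on the log2 scale in Cond 2 (limma adjusted p = 0.0218), from 312 ± 23.3 TPM (SD, n = 3) in Cond 1. In Cond 3 SOD1 had 286 ± 10.4 TPM (SD, n = 3, limma adjusted p = 0.245). The median of all genes tested was 0.087 higher in Cond 2 than in Cond 1 on this scale. Of the same 4, 2 passed in Cond 3, beside 38.4% of all genes. Catalase (CAT) fell by 0.51 (edgeR adjusted p = 0.000885) and CCS, the copper chaperone of superoxide dismutase, by 0.54 (edgeR adjusted p = 2.53e-06). In Cond 4 the count past the test was 0 in all 9 of these lists with edgeR, and between 0 and 4 genes of a list had an unadjusted p under 0.05.

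**Figure D4:**
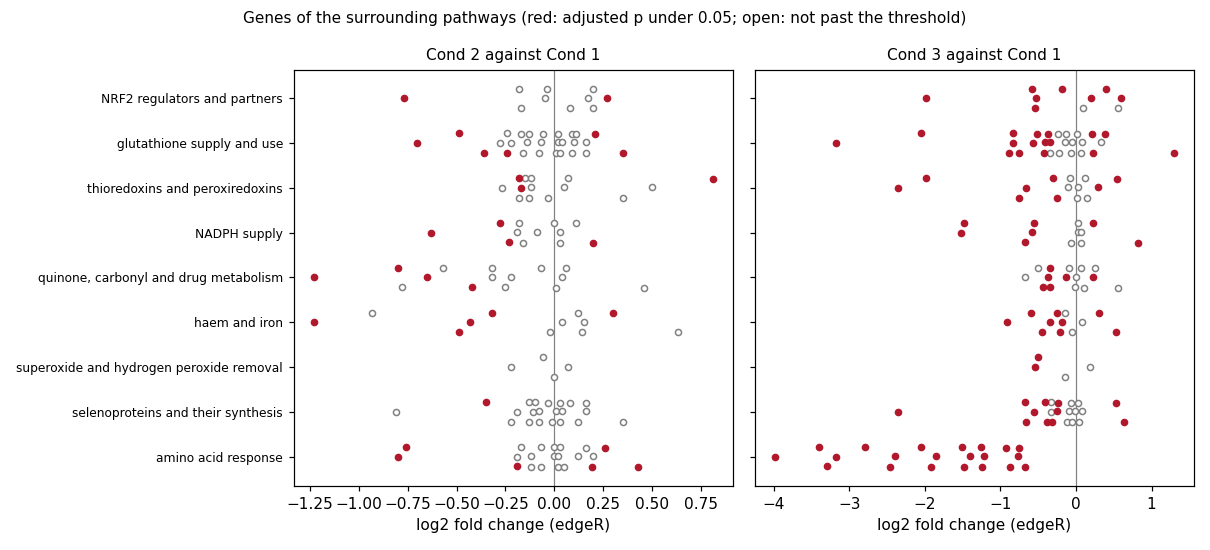
Log2 fold changes (horizontal axis, edgeR) of the listed genes other than the 9 described above, 1 point per gene, in Cond 2 and Cond 3 against Cond 1, with points spread vertically for legibility. Filled red points have an adjusted p-value under 0.05, and all 21 genes of the amino acid response lie below 0 in Cond 3.

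For NQO1, the gene with the largest called change against Cond 1, the genes whose log2(TPM + 1) followed it most closely over the 12 libraries were sought among 15700 other genes with a mean TPM of at least 1. These were RBPMS2 (Pearson r of 0.974), PHLDA3 (0.966), MFAP4 (0.961), RABEPK (0.96) and G0S2 (0.958). Mean TPM in Cond 1 and Cond 3 was 452 and 268 for RBPMS2, 64.2 and 42.7 for PHLDA3, 31.5 and 6.79 for MFAP4, 43.0 and 23.9 for RABEPK, and 94.3 and 6.68 for G0S2. The libraries form groups by condition, so these coefficients describe a shared order of the conditions and carry no test.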

How the data were processed

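According to the methods and processing notes, the authors trimmed strand-specific poly(A) reads (cutadapt 4.1, fastp 0.20.1), aligned them to GRCh38 with HISAT2 2.1.0 and used featureCounts for reads per gene. The strand setting, the handling of reads with several matches and the annotation release are not given in the sources used here. The authors deposited raw read counts with gene lengths, and TPM values made from both. Of 58580 lines of the count table, 5 were not whole and were left out, and 2042 genes, HMOX1 among them, had no count row. For these the planned count test was replaced by limma 3.58.1 on log2(TPM + 1), leaving out genes under 1 TPM in any library. Whole reads recovered from their TPM (within 1e-06) were an alternative added after the data were seen.

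TMM-normalized counts of all 12 libraries entered a single quasi-likelihood fit in edgeR 4.0.16 (filterByExpr, R 4.3.3), with Benjamini-Hochberg adjustment over 17747 genes. The standard error of an edgeR fold change was the absolute log2 fold change divided by the square root of the quasi-likelihood F statistic. The fit was tested on simulated data. Replicates differed by more than sampling noise (chi-square per gene 4.18 to 10.2). Coordinates are those of GENCODE release 44. Alternatives were DESeq2 1.42.0, RLE and upper-quartile normalization, no filter, fits of 6 libraries, a replicate block, limma with a pseudocount of 0.1, and each library left out.

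The members and gene lists were chosen with earlier results of these data known. Named genes were the 9 members, KEAP1, CUL3, MAFG and BACH1, from each list up to 3 genes with the largest called change in Cond 2 and in Cond 3 (mean TPM at least 1), and the 5 genes most like NQO1. PGLS was not analysed here.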

Additional observations from a re-analysis of the deposited data

How the results depend on the processing

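Of 479 alternative values of single genes, 437 kept their direction and their side of the threshold, 29 lost and 2 gained the call, and 11 changed direction, none of these past the threshold. The number of the 8 genes called in Cond 2 against Cond 1 was 1 with limma on log2(TPM + 1) and 1 on log2(TPM + 0.1), in place of 2. With each library left out in turn it stayed at 2, in Cond 3 against Cond 1 it was 3 to 5 in place of 6, in Cond 4 it stayed at 0, and in Cond 3 against Cond 2 it was 5 to 6 in place of 6. The calls of NQO1, GSR and TXNRD1 in Cond 3 against Cond 1 held under every alternative run. In Cond 2, GCLM had log2 fold changes of 0.027 and 0.028 with limma at pseudocounts of 1 and 0.1. With libraries left out it ranged from -0.18 to 0.053, GSR from -0.069 to 0.12 and NFE2L2 from -0.013 to 0.16. In Cond 4, NQO1 ranged from -0.066 to 0.019, HMOX1 from -0.039 to 0.17 and NFE2L2 from -0.039 to 0.10. The causes were not tested. The core element was found in 2 of 7 promoters, TGACTCA in 0 and the core within 1000 bases in 5. With the replicate number as a block the counts were 2, 6, 0 and 6 in Cond 2, Cond 3 and Cond 4 against Cond 1 and Cond 3 against Cond 2. No pair of same-numbered libraries had a correlation of deviations above 0.1, and not every library correlated best with its own number, so the numbers were not taken as pairs. Counting error weighs most on SRXN1, with 56 to 140 reads per library.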
